A study of Arabidopsis thaliana with 47 samples.

Results

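The first 0.5 h of the light response without lincomycin was measured on 8 arrays, 4 collected 0.5 h after a shift to brighter light and 4 collected before it, out of 47 arrays in the series. The arrays at 0 h are numbers 1 to 4 of the 8 of that group, chosen because they were labelled with the arrays at 0.5 h. Arabidopsis thaliana Col-0 seedlings, 7 days old, had grown on medium with 2% sucrose at 21 °C. Seeds were kept cold for 4 d, given 1 h of red light and 23 h of darkness, and then spent 6 d in dim blue plus red light of 0.5 µmol m-2 s-1. One group was taken from that light, and the other after 0.5 h at 60 µmol m-2 s-1 of blue plus red light. Each array holds RNA of 50 to 100 pooled whole seedlings, and the replicates were grown separately per the series' design text. The same pair of time points with 0.5 mM lincomycin in the medium (4 and 4 arrays) served for comparison, lincomycin being an antibiotic that stops protein synthesis on plastid ribosomes. In such pools a change in the number of cells of a type and a change in RNA per cell cannot be told apart.

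Seedlings perceive blue and red light through cryptochromes, phototropins and phytochromes. Active photoreceptors restrain the COP1 ubiquitin ligase and the PIF transcription factors, so that HY5 and related factors accumulate, pigment genes are induced and growth genes of shaded or dim-grown plants are turned down. Cytokinin, a hormone that favours greening and shoot development, acts through receptor kinases and a phosphorelay onto type-B response regulators. These switch on the type-A response regulator (ARR) genes and several cytokinin response factor (CRF) genes, and the type-A proteins dampen the same pathway.

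Levels are given as log2(signal + 1), and a change is the difference between group means (0.5 h minus 0 h, log2) ± SE from 1 limma fit of 46 arrays. A probe set was called at a Benjamini-Hochberg adjusted p under 0.05 over 22746 probe sets. The first quartile of all signals on an array, averaged over a group, was used as a floor for dim signals (5.58 at 0 h, 5.62 at 0.5 h). For a group that did not exceed it, the size of a change is known only as a bound counted from the floor, and a fitted value beside it is marked as fitted. The 8 arrays were alike in median signal (188.5 to 201.4) and in their rank correlation with all other arrays (medians 0.936 to 0.942). The labelling control Dap, added as RNA, read 3.42 to 4.77 on them, against 8.76 to 9.26 on the early arrays with lincomycin, so each response was taken within its own labelling set. On the late arrays in the fit (0 h numbers 5 to 8, 4 h and 24 h) it read 7.88 to 8.84. Where labelling sets are called different below, this is read from Dap. The 24 h array number 4 without lincomycin (median rank correlation 0.618) was left out of the fit. None of 12 antenna genes, 1 of 14 root markers and 9 of 10 seed storage genes lay at or below the floor at 0 h. The number of arrays limits the precision.

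After 0.5 h in brighter light 399 probe sets were called (1.75% of those tested), 197 higher (0.866%) and 202 lower (0.888%). Of them, 61 rose by more than 1 and 59 fell by more than 1 on the log2 scale, and the median size of a called change was 0.75. In 367 of the 399 the 4 arrays of one time did not overlap those of the other, which held for 7.41% of all probe sets. The median change of all probe sets was 0.02. Of the called probe sets 387 have a row in the authors' deposited table, and 378 of these have a log ratio of the same sign there. That table comes from the same series, so the shared sign is not independent support. Some ratios of called genes are near 0 there, such as those of HSFA2 (0.05), GA2OX1 (0.02) and HKT1 (0.02).

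**Figure D1:**
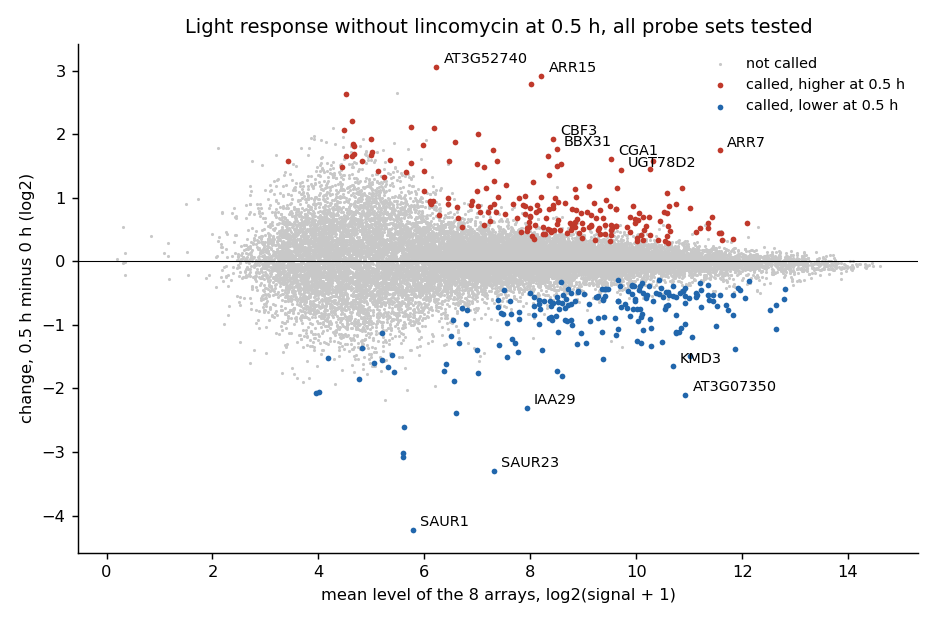
Change (0.5 h minus 0 h, log2) against the mean level of the 8 arrays for all 22746 probe sets tested. Called probe sets are coloured, 197 higher in red and 202 lower in blue, and dim probe sets on the left scatter more widely than bright ones on the right.

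Rises and falls were ranked by fitted change. The ranking took called genes whose arrays did not overlap and whose brighter time had a mean no lower than 7.70, the median probe set's level. Where a group lay at the floor, the place of the gene in the order is not settled. By fitted change the rises were led by AT3G52740, ARR15, BBX29, CBF3 and BBX31. AT3G52740, which the annotation does not name, read 3.72, 5.12, 5.65 and 4.31 at 0 h and 7.99, 7.62, 7.71 and 7.69 at 0.5 h. All 4 later arrays were far above all 4 earlier ones, and the 0 h arrays lay at the floor, which gives a rise of at least 2.17 (3.05 ± 0.35 as fitted, adjusted p = 1.6e-07). The other 10 of the 15 largest rises were AT1G75580 (listed in the annotation as SAUR51), ARR7, CIPK20, CGA1, ARR6, ASG4, CRF5, BGLU9, CRF2 and AT1G13670, with changes between 1.49 and 1.75. Thus 5 of the 15 were type-A regulators or CRF genes. CIPK20, a protein kinase that works with calcium sensors, rose from 7.63, 7.84, 7.15 and 7.38 to 9.01, 9.49, 9.05 and 9.10 (1.66 ± 0.22, adjusted p = 2.6e-06). The beta-glucosidase gene BGLU9 rose by 1.53 ± 0.33 and AT1G13670 by 1.49 ± 0.27. ASG4 rose by 1.57 ± 0.37 (adjusted p = 0.014), a call lost without 0 h number 3 (1.42), 0 h number 4 (1.3) or 0.5 h number 1 (1.51).

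The 10 largest falls as fitted were those of AT4G34770 (listed as SAUR1), SAUR23, AT2G17880 (listed as DJC24), IAA29, AT3G07350, AT4G10910, P1R3, PAR1, AT2G44130 (listed as KMD3) and AT5G62280. SAUR1 read 8.46, 7.98, 7.58 and 7.54 at 0 h and 4.01, 3.78, 3.6 and 3.29 at 0.5 h. The later arrays were all at the floor, so the fall was at least 2.27 (-4.22 ± 0.51 as fitted, adjusted p = 6.3e-07). AT3G07350 stood at 11.83, 11.96, 11.94 and 12.17 before the shift and 9.75, 9.92, 9.85 and 9.99 after it (-2.1 ± 0.14, adjusted p = 3.7e-12). Its arrays varied little within each time, and the drop was many times that spread. DJC24, a DnaJ protein gene, fell by at least 1.95 (-2.39 ± 0.50 as fitted, adjusted p = 0.0037). AT4G10910 (-1.80 ± 0.19), P1R3 (-1.76 ± 0.32) and AT5G62280 (-1.54 ± 0.22) fell as well. That the arrays of the times did not overlap was a condition of the ranking for all 10 genes.

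Type-A response regulator genes rose at 0.5 h: of 9 members measured 5 were called higher and none lower. The median change was 1.00 against 0.02 for all probe sets. Counts without lincomycin in this and the later lists stand beside 0.866% called higher and 0.888% lower over all probe sets. ARR15 read 6.43, 7.02, 7.27 and 6.30 at 0 h and 9.59, 9.67, 9.63 and 9.78 at 0.5 h, a rise of 2.91 ± 0.26 (adjusted p = 1.1e-09). ARR7 went from 10.67, 10.79, 10.55 and 10.80 to 12.48, 12.35, 12.53 and 12.44 (1.75 ± 0.16, adjusted p = 1.5e-09). In both genes every 0.5 h array was above every 0 h array by more than the spread within either time. ARR6 went from 9.59, 9.73, 9.25 and 9.58 to 11.10, 10.90, 11.23 and 11.20 (1.57 ± 0.15, adjusted p = 4.2e-09). ARR5 went from 10.35, 10.32, 10.10 and 10.40 to 11.26, 11.37, 11.62 and 11.55 (1.16 ± 0.11, adjusted p = 9.4e-09). ARR16 went from 7.86, 8.10, 7.82 and 8.08 to 9.0, 9.07, 9.01 and 8.78 (1.00 ± 0.11, adjusted p = 6e-08). The arrays of the 2 times were apart in these 3 genes as well. The other 4 members were not called: ARR4 changed by 0.24 ± 0.14, ARR8 by 0.04 ± 0.16, ARR9 by 0.00 ± 0.09, and ARR3, at the floor at both times, read 6.73, 3.98, 4.52 and 6.53 and then 5.88, 3.75, 5.81 and 4.03. ARR4, ARR8 and ARR9 were at 9.18 or above on every 0 h array, so their probe sets were not too dim to measure.

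CRF genes encode AP2-type transcription factors. Of the 8 with CRF as their symbol 2 were called higher and none lower (median change 0.26). Genes with CRF only as another name were not looked for. CRF5 read 8.0, 7.81, 7.52 and 7.89 at 0 h and 9.37, 9.33, 9.30 and 9.36 at 0.5 h (1.53 ± 0.17, adjusted p = 9.9e-08). CRF2 read 7.97, 7.58, 7.66 and 7.81 and then 9.32, 9.21, 9.21 and 9.27 (1.5 ± 0.15, adjusted p = 1.1e-08). Both rose by nearly the same amount, and their 0.5 h arrays lay close together within each gene. CRF3 was dim and uneven before the shift, at 3.83, 5.34, 6.32 and 3.76, and read 6.45, 6.76, 6.81 and 6.30 after it, a change of at least 0.87 (1.77 ± 0.50 as fitted) that did not pass the threshold (adjusted p = 0.066). It was called without 0 h number 3 (2.27). CRF11 (0.35 ± 0.11), called only without 0 h number 1 (0.46), CRF6, CRF7 and CRF8 were not called, the last 3 with changes of -0.13 to 0.07. CRF1, at the floor at 0 h, was not called either.

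All 4 KISS ME DEADLY (KMD) genes fell, a family chosen after its values were seen. They encode F-box proteins that mark type-B response regulators for degradation. KMD3 read 11.33, 11.44, 11.56 and 11.73 at 0 h and 9.63, 9.40, 10.42 and 10 at 0.5 h (-1.65 ± 0.18, adjusted p = 4.1e-08). KMD4 (AT3G59940) read 12.02, 11.98, 12.01 and 12.07 and then 10.78, 10.95, 11.17 and 11.13 (-1.01 ± 0.11, adjusted p = 9e-08). No array of one time overlapped the other in either gene. AT1G80440, listed as KMD1, fell from 13.12, 13.11, 13.22 and 13.25 to 11.93, 12.08, 12.20 and 12.24 (-1.07 ± 0.11, adjusted p = 2e-08). AT1G15670, listed as KMD2, fell least, from 11.98, 12.09, 12.17 and 12.14 to 11.46, 11.55, 11.55 and 11.71 (-0.53 ± 0.11, adjusted p = 0.0034). Of 43 other genes of cytokinin synthesis, breakdown, perception and type-B regulation, also gathered by name after the data were seen, 1 was called. This was CKX5, a cytokinin oxidase gene, which went down from 8.31, 8.04, 8.24 and 8.14 to 7.76, 7.06, 7.46 and 7.24 (-0.80 ± 0.16, adjusted p = 0.0020). The median of these 43 genes was -0.03, and 16 of them lay at or below the floor at 0 h.

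**Figure D2:**
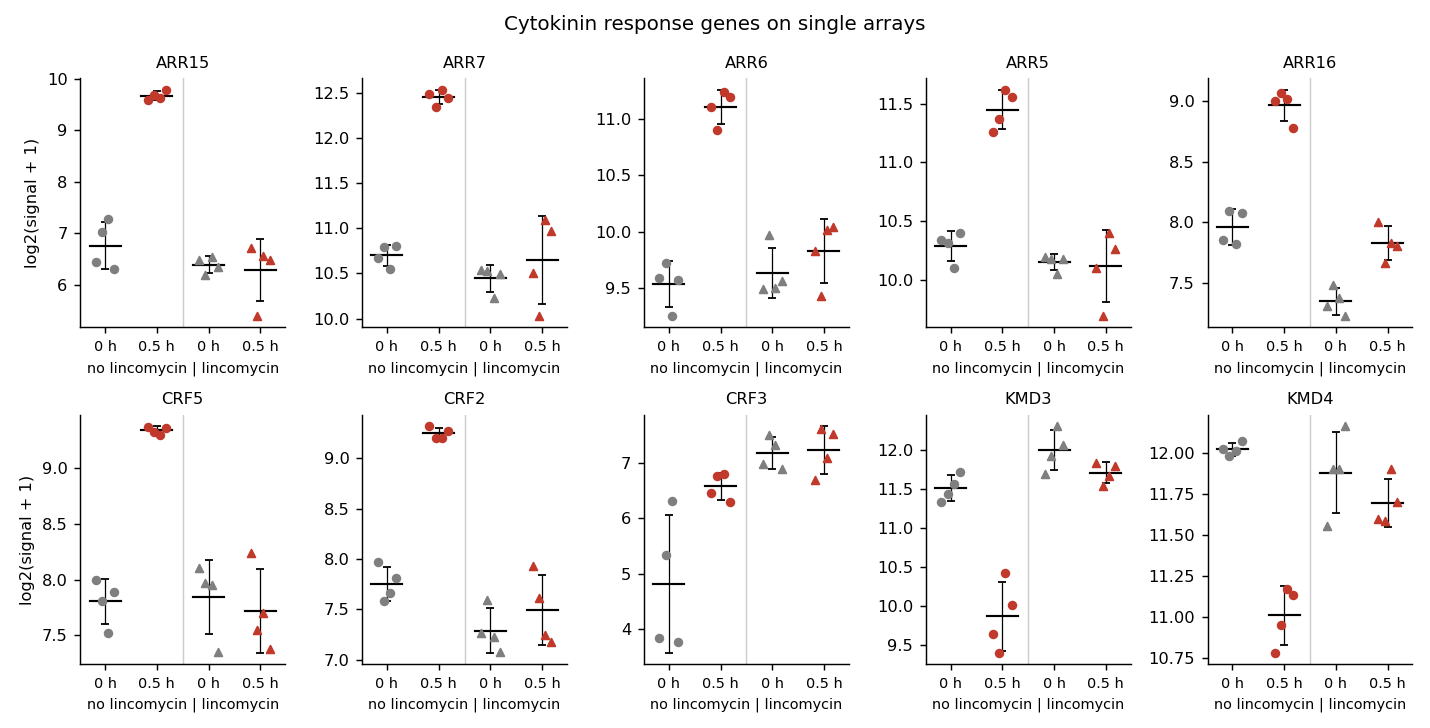
Levels, as log2(signal + 1), of 10 cytokinin-related genes on each of 16 arrays, at 0 h (grey) and 0.5 h (red), without lincomycin (circles, left) and with it (triangles, right). Horizontal bars are means and error bars SDs of 4 arrays. Without lincomycin the times are apart in all genes drawn but CRF3, and with lincomycin they are apart in ARR16 and overlap in the other 9.

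Genes of light signalling moved both ways: of 26 measured, 4 were called higher and 1 lower (median change 0.07). AT3G52740, described above, is 1 of the 4 and had the list's largest rise as fitted (3.05). HY5, a bZIP factor that promotes photomorphogenesis, read 7.88, 8.17, 7.99 and 8.21 at 0 h and 9.19, 8.93, 9.02 and 8.83 at 0.5 h (0.93 ± 0.16, adjusted p = 0.00029). Its homologue HYH read 7.78, 8.04, 7.41 and 7.80 and then 8.82, 8.85, 8.22 and 8.36 (0.80 ± 0.14, adjusted p = 0.00044). Neither gene had overlapping arrays. RUP2, a repressor of the UV-B photoreceptor, rose by 0.91 ± 0.18 (adjusted p = 0.0022), whereas its relative RUP1 changed by 0.47 ± 0.16 and was not called (adjusted p = 0.18). HFR1, an atypical helix-loop-helix factor that restrains the shade response, fell from 10.32, 10.37, 10.19 and 10.34 to 9.67, 9.59, 9.29 and 9.70 (-0.74 ± 0.15, adjusted p = 0.0029). The photoreceptor gene PHYA, which was not called, read 12.19, 12.28, 12.26 and 12.33 and then 12.10, 12.20, 12.16 and 12.27 (-0.08 ± 0.08).

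B-box zinc finger factors, several of which act with or against HY5, included 4 of 9 called higher and none lower (median change 0.59). BBX31 read 7.65, 7.67, 7.92 and 7.22 at 0 h and 9.73, 9.41, 9.34 and 9.03 at 0.5 h (1.76 ± 0.18, adjusted p = 1.1e-08). BBX29 read 4.60, 6.37, 6.44 and 6.59 and then 8.19, 8.46, 7.89 and 7.49 (2.01 ± 0.34, adjusted p = 0.00018). In BBX29 the first 0 h array was far below the other three, but the lowest 0.5 h array was still above the highest 0 h array. BBX22 (AT1G78600) had the smallest adjusted p of the list and rose from 9.10, 9.07, 9.03 and 9.02 to 10.35, 10.22, 10.07 and 10.18 (1.15 ± 0.09, adjusted p = 8.2e-11). BBX25 rose by 0.83 ± 0.10. BBX24, at 12.20 to 12.40 before the shift, changed by 0.22 ± 0.08 and was not called (adjusted p = 0.3).

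Growth genes of shaded and dim-grown plants fell: of 16 measured 8 were called lower and none higher, all 16 had changes below 0, and the median was -0.74. IAA29, an auxin response repressor gene, read 9.01, 9.23, 9.19 and 8.89 at 0 h and 7.08, 6.71, 7.00 and 6.32 at 0.5 h (-2.30 ± 0.28, adjusted p = 6.1e-07). PAR1, a helix-loop-helix gene induced by shade, read 9.31, 9.51, 9.45 and 9.22 and then 7.47, 7.59, 7.84 and 7.69 (-1.72 ± 0.25, adjusted p = 2e-05). Each later array of these genes was more than 1 log2 unit below each earlier one. The homeodomain-zipper gene HAT1 fell by at least 1.33 (-1.73 ± 0.35 as fitted, adjusted p = 0.0029), and its relative HB52 from 9.74, 9.68, 9.42 and 9.57 to 8.70, 8.82, 8.46 and 8.68 (-0.94 ± 0.17, adjusted p = 0.00048). HB-2, the best known shade marker of that family, read 8.69, 8.78, 8.84 and 8.31 and then 7.48, 7.06, 7.97 and 7.28. Its arrays did not overlap, yet the change of -1.21 ± 0.35 missed the threshold (adjusted p = 0.068) and was called without 0.5 h number 3 (-1.38). The cell wall gene XTH15 changed by -0.35 ± 0.20 (adjusted p = 0.67).

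SAUR genes, small auxin-induced genes several of whose products promote cell expansion, held the 2 largest falls as fitted. Of these, SAUR1 was at the floor at 0.5 h. Of the 9 with SAUR as their symbol 3 were called lower and none higher (median -1.29). SAUR23 read 9.09, 8.98, 8.94 and 8.84 at 0 h and 4.68, 5.93, 5.77 and 6.30 at 0.5 h (-3.29 ± 0.31, adjusted p = 4.2e-09), from a probe set whose probes may also bind near-identical SAUR genes. SAUR68 fell from 8.49, 8.51, 8.35 and 8.05 to 6.61, 7.52, 7.51 and 6.61 (-1.29 ± 0.24, adjusted p = 0.00086), and SAUR27 by at least 1.36 (-1.61 ± 0.26 as fitted, adjusted p = 0.00011). SAUR36, near 9 at both times, changed by 0.10 ± 0.18. Counting all 56 genes that the annotation calls SAUR by any name, a list drawn up after the data were seen, 9 fell and 2 rose, the median was -0.27, and 18 lay at or below the floor at 0 h. SAUR51 was 1 of the 2 that rose, with 6.79, 6.66, 5.58 and 6.69 at 0 h and 7.78, 8.02, 8.57 and 8.36 at 0.5 h (1.75 ± 0.25, adjusted p = 1.1e-05).

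Among 16 primary auxin response genes 3 were called lower and none higher (median -0.34), 1 of them IAA29. IAA2 fell from 11.76, 11.64, 11.63 and 11.71 to 11.05, 11.04, 10.98 and 11.22 (-0.61 ± 0.11, adjusted p = 0.00028), and WES1, which conjugates auxin to amino acids, fell by 0.46 on the log2 scale (adjusted p = 0.0039). IAA7, not called, changed by -0.08 ± 0.12. Among 10 genes of gibberellin and brassinosteroid metabolism 1 was called, the gibberellin oxidase gene GA2OX1, which read 4.90, 3.47, 2.99 and 3.75 and then 5.02, 6.15, 5.78 and 5.38 (adjusted p = 0.0011). Its 0.5 h mean was itself below the floor, so no size is given.

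**Figure D3:**
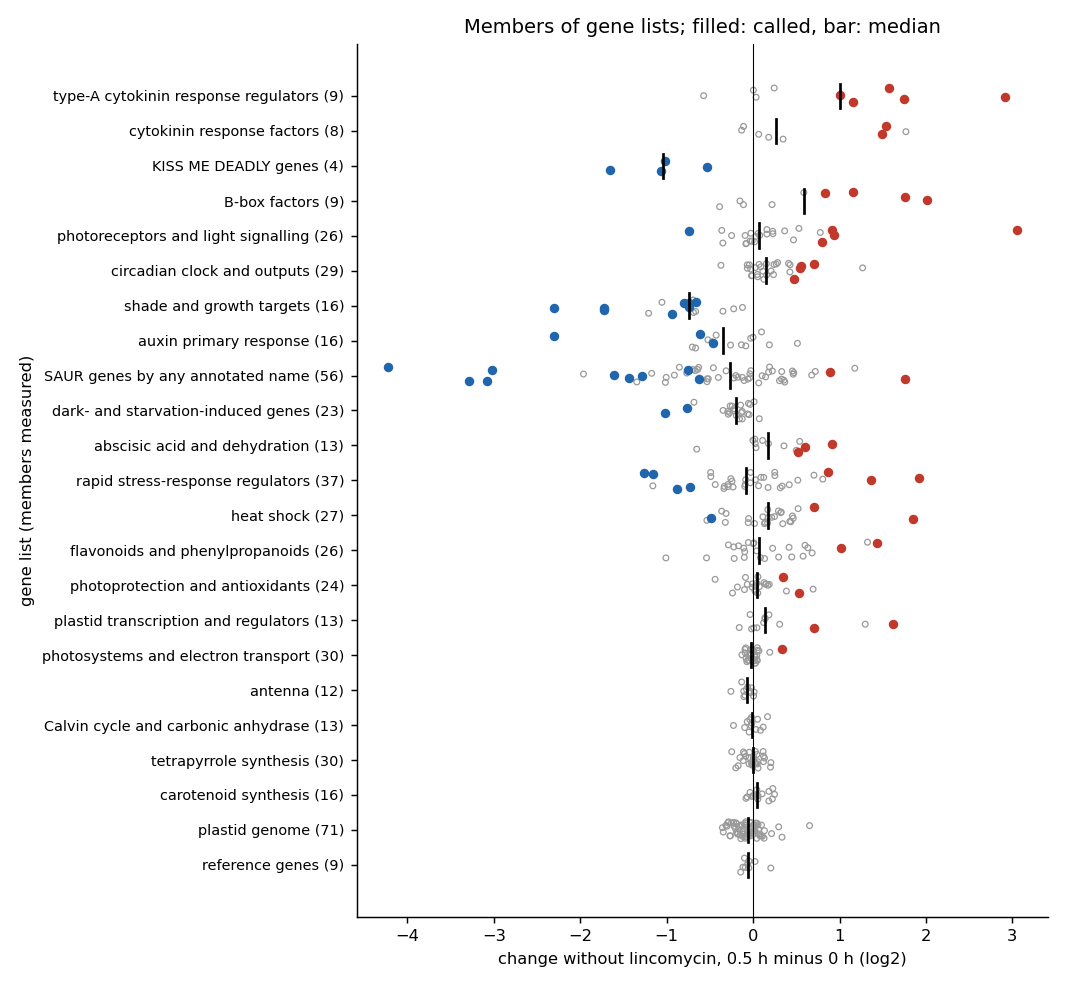
Changes without lincomycin (0.5 h minus 0 h, log2) of the members of 23 gene lists. Filled points were called (red higher, blue lower), open points were not, black bars are medians, and the number of members measured stands in brackets. The type-A regulators (median 1.00) lie to the right, the KMD genes (median -1.04) and shade and growth genes (median -0.74) to the left, and photosynthesis genes close to 0.

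Of 13 genes of plastid transcription and its regulators 2 were called higher and none lower (median 0.14). CGA1, a GATA factor that promotes chlorophyll synthesis and is known to respond to cytokinin, read 8.72, 8.82, 8.45 and 8.85 at 0 h and 10.30, 10.36, 10.33 and 10.30 at 0.5 h (1.61 ± 0.19, adjusted p = 2.9e-07). SIG5, a sigma factor for the plastid RNA polymerase, read 9.57, 9.54, 9.53 and 9.49 and then 10.42, 10.22, 10.09 and 10.20 (0.70 ± 0.13, adjusted p = 0.00046). The 0.5 h arrays were above the 0 h arrays in both genes. Of 30 genes of photosystems and electron transport 1 was called higher, the leaf ferredoxin gene FD1 (11.54, 11.51, 11.35 and 11.38, then 11.84, 11.73, 11.83 and 11.73). Its change of 0.34 ± 0.09 sat at the threshold (adjusted p = 0.05 after rounding) and lost the call without any one of the 8 arrays (0.31 to 0.37). None of 12 antenna, 13 Calvin cycle, 30 tetrapyrrole, 16 carotenoid and 71 plastid genome genes was called in limma, with medians from -0.07 to 0.05. Of the genes not called, PSBR of photosystem II changed by -0.08 ± 0.08 and LHCA3 of the antenna by -0.11 ± 0.09.

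In the flavonoid and phenylpropanoid list 2 of 26 were called higher and none lower (median 0.06). UGT78D2, which adds glucose to flavonols and anthocyanidins, read 9.0, 9.03, 8.90 and 9.05 at 0 h and 10.80, 10.60, 9.97 and 10.34 at 0.5 h (1.43 ± 0.13, adjusted p = 3.1e-09). F3H, a hydroxylase early in the pathway, read 7.94, 8.49, 8.66 and 8.37 and then 9.64, 9.05, 9.31 and 9.52 (1.01 ± 0.22, adjusted p = 0.0060). Both were above the 0 h arrays on every 0.5 h array. CHS, the first enzyme of the pathway, read 8.48, 8.90, 8.79 and 8.55 and then 8.46, 7.70, 9.88 and 9.87. Its 0.5 h arrays spread on both sides of the 0 h arrays, so no change could be shown (0.30 ± 0.46, adjusted p = 0.96), and the sign turned without 0.5 h number 3 (-0.0064) or number 4 (-0.0022). Of 24 photoprotection and antioxidant genes 2 were called higher and none lower (median 0.05). VTC2, of vitamin C synthesis, rose from 11.04, 10.85, 10.86 and 11.01 to 11.52, 11.70, 11.27 and 11.39 (0.53 ± 0.08, adjusted p = 8e-05). SEP2 of thylakoid membranes rose by 0.34 ± 0.09 (adjusted p = 0.032), a call lost without 0 h number 2 (0.34) or 3 (0.29) and without 0.5 h number 1 (0.30) or 3 (0.32). The early light-induced genes ELIP2 (0.69 ± 0.28, adjusted p = 0.34) and ELIP1 (0.39 ± 0.44, adjusted p = 0.92) were not called, and their arrays overlapped.

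Clock genes and their outputs had 4 of 29 called higher and none lower (median 0.15). CDF3, a Dof factor, read 10.97, 11.10, 11.08 and 11.19 at 0 h and 11.85, 11.89, 11.57 and 11.84 at 0.5 h (0.70 ± 0.10, adjusted p = 5.2e-06). GI, a large clock protein gene, read 9.23, 9.30, 9.50 and 9.35 and then 9.90, 9.97, 9.93 and 9.77 (0.55 ± 0.10, adjusted p = 0.00088). The arrays of the 2 times were apart in both. COL2 (0.55 ± 0.14, adjusted p = 0.032) and LNK3 (0.48 ± 0.12, adjusted p = 0.027) rose less firmly. The COL2 call was lost without 0 h number 1, 3 or 4 or any 0.5 h array (0.50 to 0.57), and that of LNK3 without 0 h number 1, 3 or 4 or 0.5 h number 1, 2 or 4 (0.44 to 0.49). The core oscillator gene CCA1 changed by 0.24 ± 0.11 (adjusted p = 0.47).

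Stress regulators were split: of 37 measured 3 were called higher and 4 lower (median -0.09). CBF3 and CBF2, AP2 factors of cold acclimation, rose together with the MYB gene MYB44. CBF3 read 7.32, 7.11, 8.10 and 7.33 at 0 h and 9.63, 9.47, 9.15 and 9.31 at 0.5 h (1.93 ± 0.24, adjusted p = 1.1e-06). CBF2 read 7.42, 7.81, 7.64 and 7.82 and then 9.2, 8.92, 9.13 and 8.88 (1.36 ± 0.20, adjusted p = 2e-05). CBF2 and CBF3 are close copies, and their probe sets may share signal. The 3 factors TEM1, RAV1 and RAV2, all with AP2 and B3 domains, fell, as did WRKY40. MYB44 and WRKY40 are not among the 101 named genes. Their sizes, and whether their calls hold without single arrays, are not given here. TEM1 fell from 11.03, 11.36, 10.93 and 11.16 to 9.95, 9.85, 9.44 and 10.18 (-1.26 ± 0.16, adjusted p = 2e-06). RAV2 fell by 0.88 on the log2 scale (adjusted p = 0.00020), and RAV1 by 1.16 (adjusted p = 0.0086), the latter not called without 0.5 h number 1 (-1.03). ZAT12, a zinc finger gene of oxidative stress, changed by 0.31 ± 0.15 (adjusted p = 0.52).

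Of 27 heat shock genes 2 were called higher and 1 lower (median 0.18). DREB2A rose from 9.64, 9.58, 9.96 and 9.90 to 10.45, 10.50, 10.38 and 10.55 (0.70 ± 0.16, adjusted p = 0.0096), a call lost without 0 h number 2 (0.64). The heat shock factor gene HSFA2 read 3.57, 3.43, 4.37 and 3.54 and then 6.11, 5.37, 5.23 and 5.58 (adjusted p = 0.010, lost without 0.5 h number 1). Its 0.5 h mean lay below the floor, so no size is given. J20, a plastid J-protein gene, fell by 0.49 on the log2 scale (adjusted p = 0.035), a call lost without 0 h number 2, 3 or 4 or 0.5 h number 1, 2 or 3 (-0.51 to -0.43). The chaperone gene HSP70 (AT3G12580) was not called and changed by 0.43 ± 0.14 (adjusted p = 0.16), and APX2, a peroxidase gene of high light, was at the floor at both times. Of 13 abscisic acid genes 3 were called higher and none lower (median 0.18). The 3 genes, HAI2, PP2CA and HAB1, encode phosphatases that hold that pathway in check. HAB1 rose from 11.19, 10.99, 11.15 and 11.04 to 11.80, 11.48, 11.57 and 11.58 (0.52 ± 0.10, adjusted p = 0.0022). HAI2 (0.91 ± 0.20) lost the call without 0 h number 2 (0.79) or 0.5 h number 1 (0.80), and PP2CA (0.60 ± 0.16) without any of the 8 arrays but 0 h number 3 (0.54 to 0.62).

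Dark- and starvation-induced genes had 2 of 23 called lower and none higher (median -0.19). Besides KMD4 this was BT2, a BTB scaffold protein gene, which fell from 12.85, 12.94, 12.82 and 13.03 to 12.17, 12.07, 12.17 and 12.15 (-0.77 ± 0.13, adjusted p = 0.00030). DIN10, a marker of dark induction, read 12.78, 13, 12.86 and 13.01 and then 12.58, 12.71, 12.72 and 12.77. Its arrays did not overlap, but the change of -0.22 ± 0.14 was not called (adjusted p = 0.74). Of 19 nitrogen and sulfur genes 2 were called lower and none higher (median 0.01). They were LBD37 and LBD38, repressors of nitrate-responsive genes. LBD37 read 10.59, 10.75, 10.95 and 10.64 at 0 h and 9.32, 9.34, 9.69 and 9.45 at 0.5 h (-1.28 ± 0.13, adjusted p = 2.9e-08). LBD38 fell by 0.65 on the log2 scale (adjusted p = 0.0012).

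Few markers of tissues and handling were called. Over all probe sets 0.866% were called higher and 0.888% lower, and in lists this short a single call exceeds that share. None of 9 reference genes (median -0.06), 9 vascular genes (median -0.23) and 18 jasmonate genes (median -0.11) was called in limma. Nor was any of 10 seed genes (median -0.29), of which 9 lay at or below the floor at 0 h. The reference gene GAPC2 changed by -0.10 ± 0.07. Of 8 touch and calcium genes TCH4 was called lower (-0.68 ± 0.18, adjusted p = 0.042), a call lost without any one of the 8 arrays (-0.73 to -0.63). Of 14 root markers the sodium transporter gene HKT1 was called higher (0.94 ± 0.24, adjusted p = 0.024), with overlapping arrays and a call lost without 0 h number 3 or 4 or 0.5 h number 1, 2 or 3 (0.66 to 0.95). Of 11 stomatal markers EPFL9, a peptide that promotes stomata, was called lower (-0.54 ± 0.13, adjusted p = 0.014), and not without 0 h number 3 (-0.45) or 0.5 h number 2 (-0.49). The mean level of the root list was 7.67 to 7.99 at 0 h and 7.49 to 8.06 at 0.5 h. That of the stomatal list lay at 7.11 to 7.40 and then 7.01 to 7.31, so the times overlapped. The part of these tissues in the results was not tested.

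With lincomycin the same shift called 206 probe sets (0.906%), 113 higher and 93 lower. The difference between the responses was called for 42 probe sets (0.185%), 23 where the change without lincomycin was the higher and 19 where it was the lower. The 2 responses share no arrays but lie in different labelling sets, as read from Dap. By fitted size the 5 top positive differences were those of ARR15, SAUR51, LEA18, CRF5 and ARR7, though LEA18 was below the floor with lincomycin and has no measured size. The 5 top negative were those of AT3G07350, LBD37, GATA4, KMD3 and AT2G21210 (listed as SAUR6). A fit of the 16 arrays of this comparison alone called 2 probe sets in place of 42, those of ARR15 and GATA4, so that all other differences named here lost their call in it.

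Of the type-A and CRF genes that rose without lincomycin, ARR16 was the 1 also called with it. With lincomycin ARR15 read 6.48, 6.19, 6.54 and 6.35 at 0 h and 6.72, 5.39, 6.55 and 6.47 at 0.5 h, a change of -0.11 ± 0.26. The difference from the response without lincomycin was 3.02 ± 0.37 (adjusted p = 2.3e-05). The differences of ARR7 (1.54 ± 0.22, adjusted p = 0.00013), ARR6 (1.38 ± 0.21, adjusted p = 0.00033) and ARR5 (1.19 ± 0.16, adjusted p = 4.5e-05) were called too. These 3 genes started from similar levels in both treatments, for ARR7 from 10.22 to 10.54 with lincomycin and from 10.55 to 10.80 without. Thus 4 of 9 type-A genes were called for the difference, all positive, but ARR7, ARR6 and ARR5 were not called in the fit of the 16 arrays alone. ARR16, which rose with lincomycin as well (0.48 ± 0.11, adjusted p = 0.018), did not differ past the threshold (0.52 ± 0.15, adjusted p = 0.17).

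Among the CRF genes CRF5 (1.66 ± 0.24, adjusted p = 0.00013) and CRF2 (1.29 ± 0.21, adjusted p = 0.00096) differed between the treatments. With lincomycin CRF5 read 8.10, 7.97, 7.95 and 7.35 at 0 h and 8.24, 7.55, 7.70 and 7.38 at 0.5 h. The times overlapped there, whereas without lincomycin they were well apart. KMD3 (-1.36 ± 0.25, adjusted p = 0.0046) and KMD4 (-0.83 ± 0.16, adjusted p = 0.0085) fell more without lincomycin. KMD1 (-0.62 ± 0.11) and KMD2 (-0.60 ± 0.11) fell with lincomycin too, and their differences of -0.44 ± 0.15 and 0.07 ± 0.16 were not called. In the authors' deposited table the log ratios at 0.5 h are 4.44 without and -0.01 with lincomycin for ARR15, 2.13 and 0.23 for ARR7, and 2.36 and -0.02 for CRF2.

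SAUR51 rose without lincomycin and with it went from 7.68, 6.57, 7.55 and 7.87 to 6.64, 7.31, 6.46 and 6.66 (-0.65 ± 0.25, not called), a difference of 2.40 ± 0.35 (adjusted p = 0.00013). SAUR6 fell without lincomycin from 11.01, 10.99, 10.75 and 10.94 to 10.13, 10.03, 10.28 and 10.24 and rose with it from 9.53, 9.23, 9.15 and 9.13 to 9.48, 9.68, 10.10 and 10.09. Its changes of -0.75 ± 0.12 and 0.58 ± 0.12 were both called and opposite in sign (difference -1.33 ± 0.18, adjusted p = 3.6e-05). LEA18, a late embryogenesis abundant gene, read 7.53, 7.25, 7.15 and 7.77 and then 8.90, 8.45, 8.61 and 8.70 without lincomycin. With it the gene lay below the floor at both times (5.97 and 6.02 there), at 5.24, 5.89, 4.42 and 6.17 and then 4.87, 4.35, 3.49 and 4.89. The difference passed the test (adjusted p = 0.0099), but no size is given, since the change with lincomycin was not measured. The rise without lincomycin (1.24 ± 0.31, adjusted p = 0.024) lost its call without 0 h number 2 or 3 or 0.5 h number 1, 3 or 4 (1.15 to 1.26).

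LBD37 was flat with lincomycin (0.22 ± 0.13) against its fall without (difference -1.5 ± 0.19, adjusted p = 2.6e-05). GATA4, a zinc finger transcription factor gene, fell without lincomycin from 10.87, 11.15, 10.90 and 10.85 to 9.44, 9.47, 9.72 and 9.85. With lincomycin it read 10.19, 10.16, 10.35 and 10.49 and then 10.39, 10.30, 10.43 and 10.58 (difference -1.45 ± 0.20, adjusted p = 6.7e-05). AT3G07350 fell in both treatments, by 2.1 without lincomycin and by 0.56 with it on the log2 scale (difference -1.53 ± 0.20, adjusted p = 3.6e-05). With lincomycin it started lower, at a mean of 10.02 against 11.97 without. At 0.5 h the means were 9.46 with lincomycin and 9.88 without. The part of the lower start in this difference was not tested.

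With lincomycin 4 of 26 light signalling genes were called higher and 1 lower, 4 of 9 B-box genes higher, 7 of 16 shade and growth genes lower, and 3 of the 9 genes with a SAUR symbol lower. These counts stand beside 113 called higher and 93 lower of all 22746 probe sets with lincomycin. None of the 4 lists held a called difference, whereas the 56 genes called SAUR by any name held 2, those of SAUR51 and SAUR6. HY5 rose by 1.33 ± 0.16 with lincomycin, CGA1 by 1.43 ± 0.19, UGT78D2 by 1.27 ± 0.13 and BBX31 by 1.85 ± 0.18. Their differences from the response without lincomycin lay between -0.39 and 0.19 and were not called, which does not show that the responses were equal. With lincomycin SAUR1 fell by at least 2.38 on the log2 scale, its 0.5 h arrays being at the floor in both treatments, so that the falls cannot be compared in size. IAA29 changed by -1.53 ± 0.28 and SAUR23 by -2.08 ± 0.31 there, with differences of -0.77 ± 0.40 and -1.21 ± 0.44 that were not called. CHS was called higher with lincomycin (1.88 ± 0.46, adjusted p = 0.031) and not without it, but the difference of -1.59 ± 0.64 was not called (adjusted p = 0.46).

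**Figure D4:**
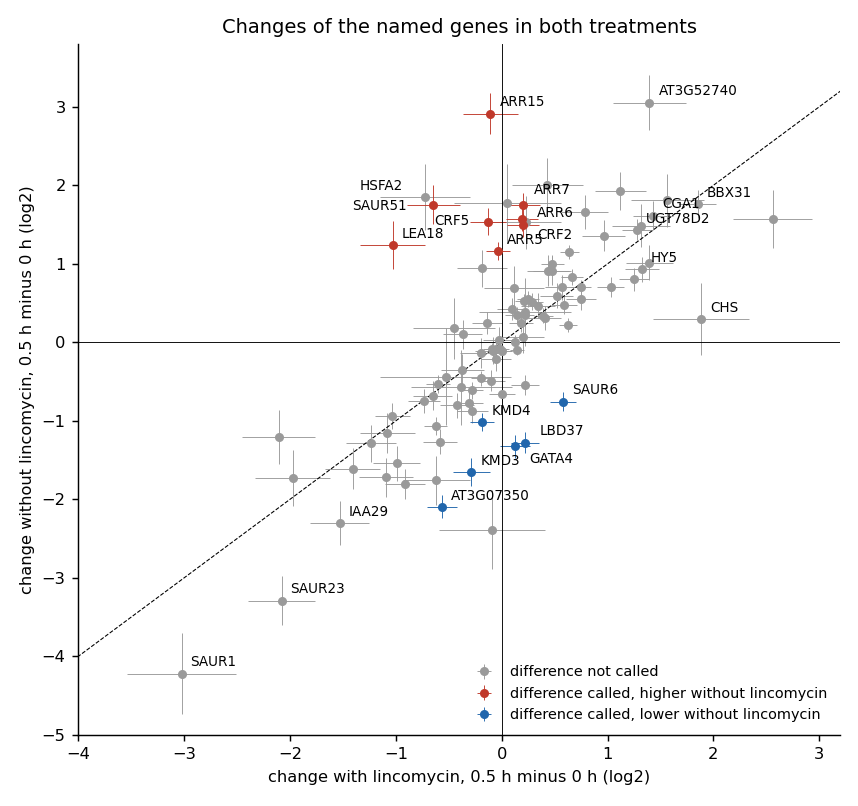
Change at 0.5 h without lincomycin (vertical) against the change with lincomycin (horizontal), both log2 with SE bars, for the 101 named genes. On the dashed line the responses are equal. Red and blue points have a called difference, such as ARR15 (2.91 without and -0.11 with lincomycin) and GATA4, and HY5, BBX31, SAUR23 and IAA29 lie on the same side of 0 in both. Values are as fitted, and some, such as those of AT3G52740, SAUR1, HSFA2 and LEA18, include groups at the floor.

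Later times without lincomycin are set beside the 0.5 h values. The 1 h changes rest on the same 0 h arrays, and those at 4 and 24 h on 0 h numbers 5 to 8 and arrays of another labelling set. ARR15 stood at 2.91 and 2.63 above its 0 h level at 0.5 and 1 h. Its later 0 h arrays lay at the floor, and its changes at 4 and 24 h were at least 0.44 and 0.11 (0.62 and 0.29 as fitted). ARR7 stood at 1.75, 0.80, 0.39 and -0.19 at 0.5, 1, 4 and 24 h, and ARR5 at 1.16, 0.16, -1.0 and -1.42. Both had their highest change at 0.5 h. CRF2 stood at 1.5, 2.2, 0.60 and -0.28, with its highest change at 1 h. HY5 stood at 0.93, 2.2, 1.4 and -0.49, CGA1 at 1.61, 2.74, 1.96 and -0.91, and UGT78D2 at 1.43, 2.99, 2.63 and 1.27. These genes were also further from 0 h at 1 h than at 0.5 h. ELIP2 stood at 0.69, 2.86, 4.42 and 3.09 and CHS at 0.30, 0.91, 6.30 and 6.32. Neither was called at 0.5 h. IAA29 stood at -2.30 at 0.5 h, had fallen to the floor at 1 h, by at least 3.11 on the log2 scale, and stood at -3.0 and -2.42 at 4 and 24 h. SAUR23 stood at -3.29, -2.08, -2.56 and -1.65, and KMD4 at -1.01, -1.53, -1.85 and -1.21.

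**Figure D5:**
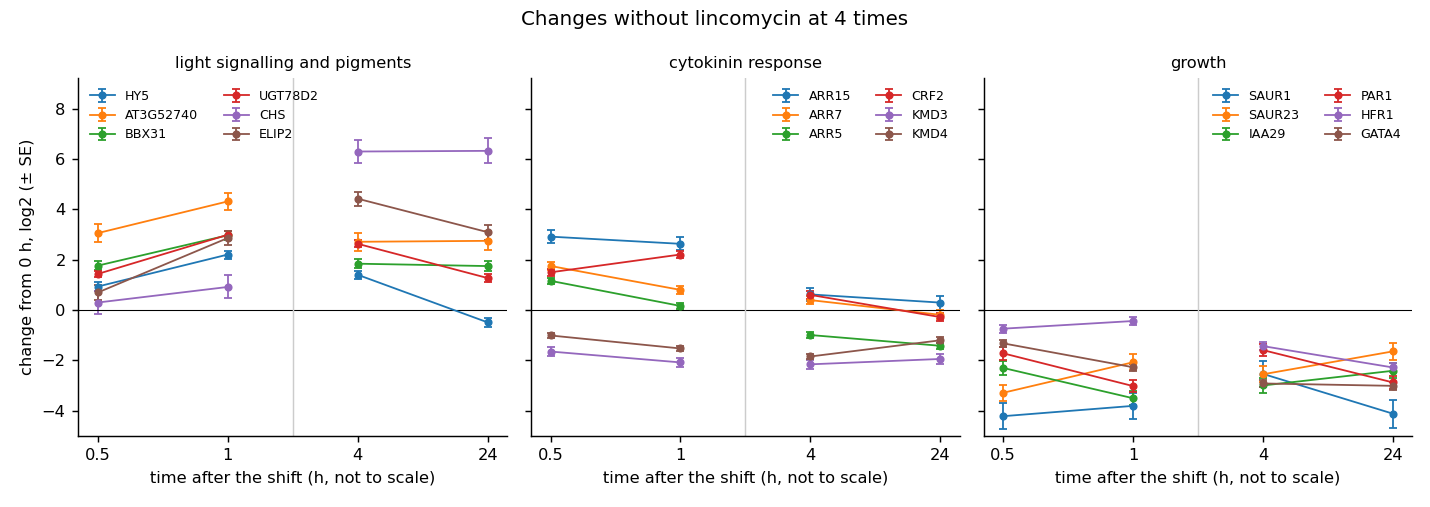
Changes from 0 h without lincomycin (log2, points with SE bars) at 0.5, 1, 4 and 24 h for 18 genes in 3 panels. The grey line parts the times measured against 0 h numbers 1 to 4 (left) from those measured against numbers 5 to 8 (right). Values are as fitted, those of AT3G52740, ARR15, SAUR1, IAA29 and PAR1 including groups at the floor. ARR7 and ARR5 have their highest points at 0.5 h, whereas CHS and ELIP2 have theirs at 4 or 24 h.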

How the data were processed

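RNA of pooled seedlings was hybridized to Affymetrix ATH1 arrays, 1 array per sample. For each array the authors deposited linear intensities, 1 value for a probe set. Which of MAS5 and GCRMA, both listed in the submitters' processing notes, produced them is not given there. Every array has a trimmed mean near 500 (500.03 to 500.05), as MAS5 scaling gives. The authors' other deposited table has log ratios to 0 h with p-values, whose base its header does not state, here read as log2 values. Only its ratios at 0.5 h are quoted.

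Intensities were used as log2(intensity + 1) without further scaling. Of 22810 probe sets, 64 controls were left out. The annotation (TAIR10.1, used for names only) gave 21487 probe sets 1 gene, 503 several and 688 none, and 68 were named differently by 2 sources. One limma 3.58.1 fit in R 4.3.3 held 46 arrays in 12 cells, with each 0 h group split into numbers 1 to 4 and 5 to 8. Tables and figures used Python 3.11.15, pandas 2.3.3, numpy 2.4.6 and matplotlib 3.10.9. The fitting code was tested on simulated data. All adjusted p-values are Benjamini-Hochberg values over all probe sets in a comparison, called under 0.05. A gene with several probe sets is represented by the brightest. The floor for dim signals is each array's first quartile.

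The compared arrays, all lists and the naming rule were chosen with earlier results of these data known, and gene lists are described by counts, with no test. The text names the 15 top rises, the 10 top falls, up to 5 called members of each list and the brightest not called, a few fixed genes, and the 5 largest differences each way. For length not every brightest uncalled member is named. All listed CRF and type-A members, the KMD genes, and MYB44 and WRKY40 were added after their values were seen. Promoter sequences, foreseen for some genes, were not analysed here.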

Additional observations from a re-analysis of the deposited data

Results flagged for a closer look

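The response at 0.5 h differed between seedlings without and with lincomycin, by the test of the difference itself (limma, adjusted p under 0.05), for 14 of the named genes. The difference (without minus with lincomycin, log2) was positive for ARR15 (3.02), AT1G75580 (2.40), LEA18 (2.27), CRF5 (1.66), ARR7 (1.54), ARR6 (1.38), CRF2 (1.29) and ARR5 (1.19). It was negative for AT3G07350 (-1.53), LBD37 (-1.50), GATA4 (-1.45), AT2G44130 (-1.36), AT2G21210 (-1.33) and KMD4 (-0.83). LEA18 lay below the floor for dim signals with lincomycin, so its value is a fitted one with no measured size. The 2 treatments lie in different labelling sets, as read from the control Dap, and the part of that in the differences was not tested.

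Single arrays stood apart from the other 3 of their group in 9 of 202 groups of 4 looked at, by the gap to the nearest array against the whole range. Chance gives about 1 in 20. At 0 h these were number 1 for BBX29, the lowest at 4.60, number 3 for HSFA2, the highest at 4.37, for AT1G75580, the lowest at 5.58, and for CRF6, the lowest at 8.49, and number 2 for RAV2, the highest at 10.76. At 0.5 h they were number 3 for CDF3, the lowest at 11.57, number 4 for PSBR and SAUR27, the lowest at 13.79 and 4.53, and number 1 for RAV2, the lowest at 9.50.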

How the results depend on the processing

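The 399 calls of the light response became 194 with all 47 arrays, 177 from the 8 arrays alone (157 of them shared) and 3695 with both 0 h sets as reference (320 shared), which adds arrays of another labelling set. The 42 called differences became 16 with all 47 arrays, 2 from the 16 arrays alone, 891 with both 0 h sets, 86 with dim probe sets filtered out, 75 with the spread as a function of mean signal and 89 with a replicate block in the fit of 46 arrays. The last 2 settings were chosen after seeing the data. Some of these fits hold fewer arrays or genes, and the causes of the changed counts were not tested. Without each array in turn the light response gave 273 to 341 calls and the differences 30 to 78, the latter at 78 without lin 0.5 h number 1 and again without number 2. Of the 399 calls 208 held in all 8 of these fits, as did 58 of 72 named called genes. The 72 leave out FD1, MYB44 and WRKY40, and FD1 lost its call in all 8 fits.

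Whether replicate numbers pair the arrays was not tested. Deviations of arrays with the same number correlated weakly but all positively, at 0.06, 0.05, 0.10 and 0.18. Of the 4 arrays 3 correlated best with their own number. A replicate block within the compared arrays alone left 1 call of the light response and 0 differences (limma, few residual degrees of freedom), whereas in the fit of 46 arrays it gave 416 for the light response. Against both 0 h sets the signs of HKT1 (-0.231), HSP70 (-0.056), FD1 (-0.041) and SAUR36 (-0.161) turned. Without each array in turn CHS ranged from -0.0064 to 0.722, ARR8 from -0.0113 to 0.0997, ARR9 from -0.0195 to 0.0346 and CRF6 from -0.246 to 0.0706, none of them called. Of the named changes and differences 25 lost their call with all 47 arrays, 34 with the compared arrays alone and 6 after quantile normalization.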
